A study of Mus musculus with 40 samples.

Results

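The comparison is between 2 RNA-seq libraries of each of the same 3 tumours. It takes in 6 of the series' 40 libraries: tumours A, B and C of the group labelled Balb/c-2, called the first set here, and the same letters in the group labelled Balb/c-2 rep2, called the repeat set. They were chosen by their labels and paired by tumour letter, so that what differs within a pair is the library set and not the tumour. The measurement is the deposited table of transposable elements, with 1 value per annotated repeat copy and library.

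The study passaged YUMM1.7 serially through mice. YUMM1.7 is a mouse melanoma cell line, here obtained from a cell bank, and background knowledge gives it an activated Braf. Tumours were dissociated, their cells were grown in culture for 1 to 3 passages, and poly(A) RNA of the cultured cells was sequenced, so each library is a culture grown out of 1 tumour and not the tumour tissue. The labels describe an earlier and a later sequencing batch more than a year apart, without saying which libraries belong to each.

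All 6 libraries carry the same line, tissue and passage label, and no agent, genotype or host age is given that differs between them. The passage is named after Balb/c, a laboratory mouse strain. The labels do not say whether the repeat set is a new culture, a new RNA preparation or only a new library of the same RNA, and a difference between the sets can come from any of these steps, which cannot be told apart. The library names of the whole repeat set and of the CBA group carry a string beginning with EKRN, which no other library name carries. Those of repeat tumours A and C and of CBA also share a second string that the name of repeat tumour B lacks. The labels do not explain either string. The tumour is a block in the comparison of the sets, so its p-values rest on how the set difference varies between these 3 tumours. In comparisons with other groups p-values rest on the spread between libraries within groups. In both, limma draws the variance of each feature towards a trend over all tested features. Standard errors and p-values are therefore not the spread of that feature alone. The labels do not say whether the YUMM1.7 cell libraries come from separate cultures. The other groups used below are Balb/c-1 (4 libraries), named after the same strain, and CBA (3 libraries), named after another, with N2.1, N2.2, N2.3, F0, F1 and F2 tumours and YUMM1.7 cells for single copies. As the libraries are bulk RNA, fewer expressing cells and less RNA per cell cannot be told apart.

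Transposable elements are repeated sequences that were copied through the genome. LINEs encode their own reverse transcriptase, SINEs such as B1 and B2 borrow it, endogenous retroviruses carry long terminal repeats (LTRs), and DNA transposons move by excision. In poly(A) RNA most reads over repeats come from copies that lie inside the exons of ordinary genes, above all in 3' untranslated regions (3' UTRs), and only a minority comes from elements transcribed from promoters of their own. The value of a repeat family is therefore also a readout of which parts of host transcripts were recovered.

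Recovered reads on repeats were 1690015 to 1873914 in the first set and 1280522 to 1761884 in the repeat set. Copies in 3' UTRs held 46.7% to 54.2% of the signal (the authors' scaled value) in the first set and 49.9% to 51.8% in the repeat set. The melanoma label could hardly be checked through repeats: 3 of 10 melanocyte markers contain an exon copy, their summed signal lay between 0 and 3.44, and the copy in Mlana was at 0 in all 6 libraries. The 3 fibroblast markers with an exon copy (Pdgfra, Pdgfrb and Postn) summed to 1879 to 2977 in the first set and 2156 to 3183 in the repeat set. The 6 immune markers with an exon copy summed to 16.0 to 21.3 and to 12.1 to 54.2, and the endothelial marker Vwf was at 0 in all 6.

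Among 1004 tested subfamilies (all copies with 1 repeat name, summed), 186 were lower in the repeat set, 18.5% of those tested, and 31 were higher, 3.09%. The test was limma on log2(signal + 1) with the tumour as a block, and a call is a Benjamini-Hochberg adjusted p under 0.05. Differences are given as repeat minus first set on that log2 scale with their standard error (SE). The deposited scaling left the median of all subfamilies at -0.15, and scaling by the trimmed mean of M values (TMM) moved it to -0.01. With TMM the split became 82 higher and 55 lower. All 31 higher calls and 55 of the lower calls held under both scalings, and no subfamily was called in opposite directions. Of the called subfamilies, 5 did not have the same sign in all 3 tumours, and 129 subfamilies were called without tumour C.

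**Figure D1:**
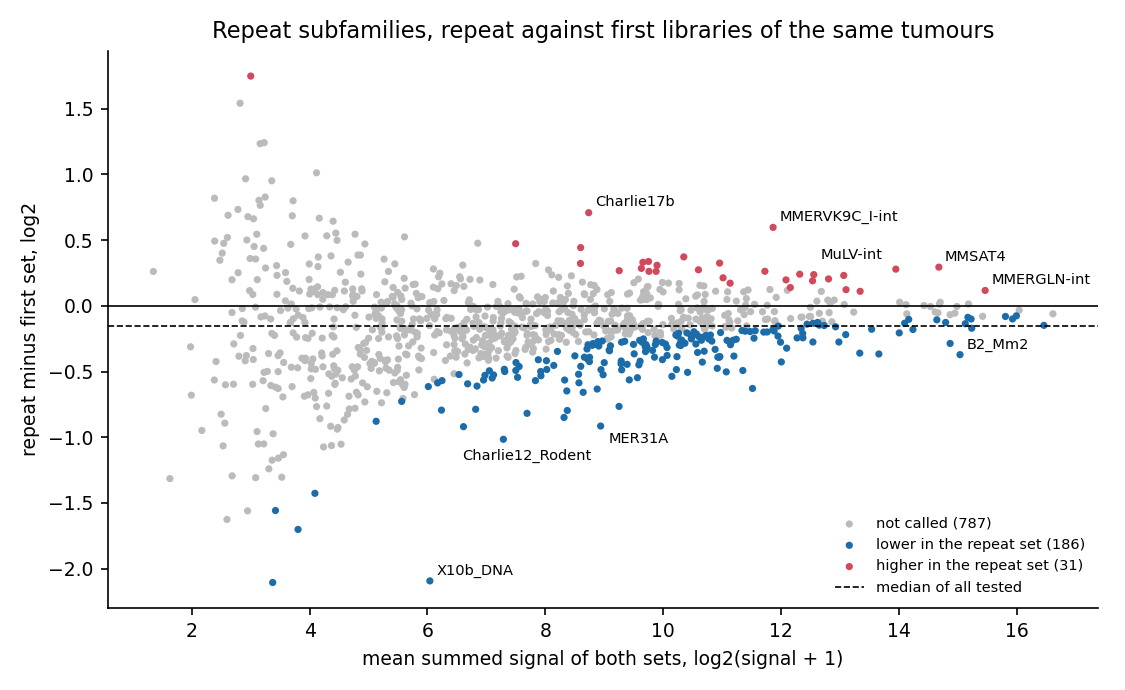
Difference between repeat and first set (vertical axis, log2, limma estimate) against the mean summed signal (horizontal axis, log2 of signal + 1) for the 1004 tested subfamilies, 1 point each, with the median of all as a dashed line. The 186 lower calls lie mostly below the dashed line, and the 31 higher calls include MMSAT4 (0.29), MMERVK9C_I-int (0.60) and Charlie17b (0.71).

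Of the SINEs, 5 of 5 subfamilies of the B2 list were called lower with the deposited scaling, with a median of -0.29. With TMM 3 of 5 remained lower, with a median of -0.14. B2 elements derive from a tRNA and are transcribed by RNA polymerase III when they stand alone. B2_Mm2 had a summed signal of 36391, 39712 and 37323 in tumours A, B and C of the first set and of 27567, 30681 and 29475 in the repeat set. All 3 repeat libraries lay below all 3 first libraries. The difference was -0.37 (SE 0.03, limma adjusted p = 1.33e-09) and -0.23 with TMM. It was spread over 28935 copies, the largest of which held 1.42% of the signal. In B2_Mm2 copies outside exons the difference was -0.45. Falls were common in sums over such copies, with 63 lower and 1 higher call of 944 subfamilies. Those sums were tested with the deposited scaling only.

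B2_Mm1t had 34547, 33893 and 29970 in the first set and 26925, 28406 and 25313 in the repeat set, a difference of -0.29 (SE 0.03, limma adjusted p = 2.65e-07) and of -0.14 with TMM. A single copy in the 3' UTR of H2-D1, a class I histocompatibility gene, held 29.6% of it. B2_Mm1a was the third B2 subfamily called lower under both scalings, by -0.36 and -0.22. B3 and B3A were lower by -0.15 and -0.17 with the deposited scaling and were not called with TMM, at -0.004 and -0.03.

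B1 elements, which derive from the 7SL RNA of the signal recognition particle, had no direction that held under both scalings. Of 15 B1 subfamilies 6 were called lower with the deposited scaling, whereas 4 were called higher and none lower with TMM, and the median went from -0.07 to 0.08. B1_Mm itself went from -0.13 to 0.01. The B4 and ID list changed in the same way, from 2 lower calls of 7 to 2 higher ones.

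In the LINE lists lower calls outnumbered higher ones. Of 65 subfamilies of older L1 elements 30 fell and 1 rose, with a median of -0.24 (-0.10 with TMM, with 15 lower and 4 higher). Of the rodent L1 list 21 of 31 fell and none rose, with a median of -0.22 (-0.08 with TMM, with 2 lower). Of 25 young L1Md subfamilies 10 fell and 1 rose, with a median of -0.17 (-0.03 with TMM, with 4 lower and 3 higher).

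The largest LINE difference among subfamilies with a mean of at least 50 was that of L1MA7. Its signal was 365, 463 and 400 in tumours A, B and C of the first set and 205, 255 and 219 in the repeat set. The sets did not overlap, and the difference was nearly equal in the 3 tumours at -0.83, -0.86 and -0.86 (mean -0.85, SE 0.11, limma adjusted p = 2.84e-06, and -0.71 with TMM). L1ME3D had 399, 389 and 472 against 248, 221 and 254 (-0.80, SE 0.11, limma adjusted p = 6.73e-06). A copy in the 3' UTR of Sh3bgrl2 held 71.8% of its signal.

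The exception among older L1 elements was L1MB7, with 4857, 6112 and 5577 in the first set and 6000, 7263 and 6228 in the repeat set. It rose by 0.24 (SE 0.05, limma adjusted p = 0.000415, and 0.38 with TMM), although the sets overlapped. Its largest copy, with 33.5% of the signal, lies in the coding sequence of Flna, which encodes the actin cross-linker filamin A (chrX:74238186-74238621, mm10). In L1MB7 copies outside exons the difference was -0.33 (limma adjusted p = 0.0319). Over all subfamilies the calls outside exons were 63 lower and 1 higher, so this fall is not particular to L1MB7.

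LTR elements did not move together. No IAP subfamily of 24 was called with the deposited scaling (1 was higher with TMM), and their median was -0.07 (0.07 with TMM). IAPs are active endogenous retroviruses of laboratory mice. IAPEz-int had 9736, 7444 and 5369 in the first set and 10350, 7269 and 5669 in the repeat set, with the tumours in the same order. MMVL30-int, the internal part of the VL30 retroelements, had 17396, 13147 and 40297 and then 16689, 13185 and 41479, differences of -0.06, 0.004 and 0.04. It was not called with the deposited scaling (limma adjusted p = 0.940) and was higher by 0.14 with TMM.

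The elements of murine leukaemia virus type were higher. Of 3 members 2, MuLV-int and RLTR4_MM-int, were higher under both scalings. MuLV-int had 12663, 15149 and 14948 in the first set and 16035, 17430 and 18351 in the repeat set, without overlap (0.28, SE 0.04, limma adjusted p = 2.94e-06, and 0.42 with TMM). A copy annotated in a noncoding exon of AI506816 (chr5:23700579-23709245, mm10) held 72.4% of that signal, and copies outside exons gave 0.31. RLTR4_MM-int had 7114, 7092 and 5696 against 8830, 7400 and 6737 (0.21, SE 0.05, limma adjusted p = 0.0023), with overlapping sets. MMERGLN-int rose by 0.12 (SE 0.03, limma adjusted p = 0.00724), from 38434, 54332 and 37276 to 44285, 55817 and 40199. One copy on chromosome 8 held 86.8% of its signal.

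MMERVK9C_I-int had the largest rise of the endogenous retroviruses, from 2768, 2700 and 3359 to 4649, 3472 and 5389. The repeat libraries all lay above the first libraries, and the difference was 0.60 (SE 0.06, limma adjusted p = 4.47e-08, and 0.74 with TMM). The copy annotated within the coding sequence of Akirin2, a nuclear regulator of transcription and protein import, held 60.4% of the signal (chr4:34550919-34551158, mm10). Outside exons, where the calls over all subfamilies were 63 lower and 1 higher, the difference of MMERVK9C_I-int was -0.19 (limma adjusted p = 0.342). RLTR44-int, led by a coding copy in the splicing cofactor gene Son, likewise rose by 0.37 and gave -0.19 outside exons. MT2B2, a MERVL-type LTR led by a coding copy in the cochaperone gene Stip1, rose by 0.23 and gave -0.07 outside exons. RLTR51A_Mm, led by a 3' UTR copy in Tead1, rose by 0.34 and gave -0.18 outside exons.

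RLTR31_Mm had 110, 113 and 151 in the first set and 91.8, 75.2 and 39.3 in the repeat set (-0.92, SE 0.23, limma adjusted p = 0.00429, and -0.77 with TMM), with 81.3% of its signal in the 3' UTR of Polr3k, an RNA polymerase III subunit gene. The difference was uneven, at -0.26, -0.58 and -1.92 in tumours A, B and C. RLTR13D5 had 118, 75.1 and 91.6 against 49.2, 64.1 and 48.4 (-0.79, SE 0.22, limma adjusted p = 0.00907), a call that ended with TMM at -0.65. LTR16B had 100, 210 and 145 against 197, 271 and 154 (0.47, SE 0.16, limma adjusted p = 0.0308), and its sets overlapped.

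The MaLR list had 17 lower and 1 higher call of 91 with the deposited scaling and 1 lower and 9 higher calls with TMM, so its direction was set by the scaling. In the RMER list 9 of 52 members fell and 1 rose, against 5 and 4 with TMM. With the deposited scaling 18.5% of all 1004 tested subfamilies were called lower and 3.09% higher, so both lists lay near the shares over all. RMER15, one of the 3 most abundant of these, fell from 4652, 4726 and 4732 to 3423, 3569 and 3505 (-0.43, SE 0.05, limma adjusted p = 2.65e-07, and -0.28 with TMM). Of the smaller retroviral lists, MERVL had 1 higher and 2 lower calls of 8 (4 and 0 with TMM), MMERVK10C 0 and 1 of 12 (2 and 0), VL30 0 and 1 of 5 (1 and 0), and MMERGLN 1 and 1 of 5 (1 and 0). The ETn and MusD list (4 members) and the MMTV list (1 member) had no call under either scaling.

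**Figure D2:**
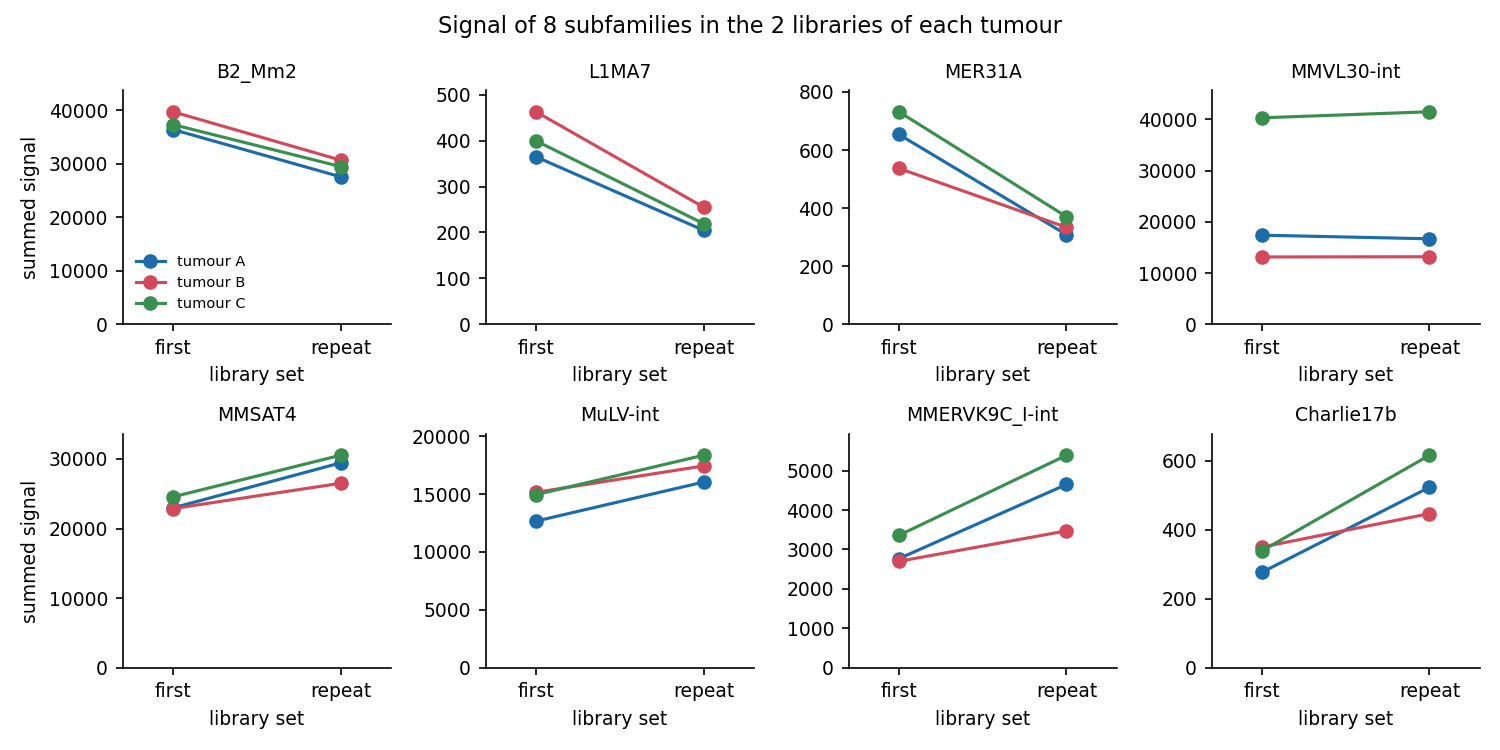
Summed signal (vertical axis, authors' scaled units, from 0) of 8 subfamilies in the first and repeat library (horizontal axis) of tumours A, B and C, with a line joining the libraries of 1 tumour. B2_Mm2, L1MA7 and MER31A fell in every tumour, MMSAT4, MuLV-int, MMERVK9C_I-int and Charlie17b rose in every tumour, and MMVL30-int kept 40297 and 41479 in tumour C against 13147 and 13185 in tumour B.

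Among DNA transposons the extremes in both directions had 1 copy with a large share of the signal. X10b_DNA had 127, 97.5 and 91.6 in the first set and 29.3, 16.6 and 27.2 in the repeat set, the largest fall of a subfamily with a mean of at least 50 (-2.09, SE 0.24, limma adjusted p = 2.65e-07, and -1.94 with TMM). Of its 5 copies, 1 at the 3' end of the zinc finger gene Zfp664 held 66.2% of the signal. Without the copies across or within 400 bases of an annotated 3' end the difference was -0.25 (limma adjusted p = 0.688).

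Charlie12_Rodent, a hAT element, had 203, 211 and 202 against 126, 125 and 65.1 (-1.02, SE 0.17, limma adjusted p = 7.16e-05). Only 2.44% of its signal was in exons, and an intergenic copy (chr10:111467891-111468283, mm10) held 46.9% of it. Charlie17b had 277, 350 and 339 against 523, 447 and 616 (0.71, SE 0.11, limma adjusted p = 3.03e-05, and 0.85 with TMM). A copy in a noncoding exon of Gm42501 held 71.8% (chr5:143314900-143315099, mm10), and copies outside exons gave 0.99. X6a_DNA, led by a 5' UTR copy in Mtmr2, had 354, 315 and 303 against 558, 340 and 449 (0.44, SE 0.11, limma adjusted p = 0.00548), with overlapping sets. Over the whole list, 14 of 91 DNA transposon subfamilies fell and 4 rose (2 and 6 with TMM). With the deposited scaling this lay near the shares over all tested subfamilies, 18.5% lower and 3.09% higher.

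The other subfamilies at the extremes were old, conserved or unclassified elements led by a copy in a known gene as well. MER31A had 654, 537 and 732 against 309, 334 and 371 (-0.91, SE 0.10, limma adjusted p = 2.09e-07, and -0.77 with TMM). Its leading copy, with 49.7% of the signal, lies in the 3' UTR of the kinetochore gene Mis12. MER113, led by AI467606, stood at -0.82 (SE 0.14), MER123, with all its signal in the 3' UTR of Hdhd2, at -0.79 (SE 0.19), and UCON34, led by Tiparp, at -0.66 (SE 0.12). HAL1, an L1 relative chosen after its values were seen, fell from 3927, 3220 and 3514 to 2323, 2255 and 2295 (-0.63, SE 0.06), with 56.0% of its signal in the 3' UTR of Smim10l1. X9_LINE rose from 1817, 1857 and 1615 to 2270, 2211 and 2138 (0.33, SE 0.06, limma adjusted p = 0.000315), and 99.9% of it was 1 copy in the 5' UTR of the corepressor gene Ctbp1. UCON70, led by Csnk2a2, and MamRTE1, led by Brwd1, rose by 0.32 (SE 0.11) and 0.31 (SE 0.08). The MIR list had 2 higher calls of 5 (4 with TMM), L2 had 2 lower of 6 (1 with TMM), conserved elements had 1 higher and 2 lower of 34 (2 and 1), and 2 tested small RNA repeats had none.

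Without copies across or within 400 bases of annotated 3' ends MER31A gave -0.26 (limma adjusted p = 0.405), MER113 -0.29 (0.344) and L1ME3D -0.55 (0.134), so those calls ended, while L1MA7 gave -0.70 and HAL1 -0.63.

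Of 33215 tested copies, 124 were lower in the repeat set, 0.373% of those tested, and 29 were higher, 0.0873%. All 153 had the same sign in all 3 tumours, and in 133 the sets did not overlap. The same values made the calls, so both counts follow in part from the selection. The shares over all tested copies were not taken. With TMM 87 of the lower and all 29 higher calls held. The count rested on all 3 tumours: limma called 0 copies without tumour A (2902 at an unadjusted p under 0.05), 70 without B and 17 without C. The places of the calls differed by direction. Of the 124 lower copies 106 lay in 3' UTRs, 32 of these across an annotated 3' end and 37 within 200 bases of one, and 2 lay in coding sequence. Of the 29 higher copies 17 lay in coding sequence and 9 in 3' UTRs, none of them at or within 200 bases of an end. Among all tested copies 8153 lay in 3' UTRs and 1596 in coding sequence.

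The copy with the largest fall was X10b_DNA in Zfp664 (chr5:124888472-124888634, mm10), which runs across the annotated 3' end. Its signal was 105, 79.6 and 59.6 in the first set and 5.32, 3.32 and 4.54 in the repeat set. These stand for 87, 71 and 52 reads and for 4, 3 and 3 reads. Pooled over tumours the first set was 18.8-fold higher (exact 95% interval 10.0 to 39.7, counting error only). L1ME4b across the end of Ubxn4, an endoplasmic reticulum gene (chr1:128279176-128279529, mm10), had 52.0, 40.4 and 36.6 against 2.66, 4.42 and 3.03, a pooled ratio of 12.4 (6.08 to 29.4).

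Of the 8 lower copies named by rule, 4 more lay across or within 208 bases of an annotated end. YREP_Mm in Sdf2 had 96.7, 67.3 and 69.9 against 9.32, 13.3 and 24.2 (-2.33, SE 0.33, limma adjusted p = 0.0283). L1ME4c in Ccnq, which encodes cyclin Q, had 127, 106 and 103 against 29.3, 23.2 and 36.3 (-1.90, SE 0.20, limma adjusted p = 0.0150). A 30-base B4A fragment in Prkci, a protein kinase C gene, had 106, 71.7 and 57.3 against 18.6, 21.0 and 18.2 (-1.93, SE 0.25, limma adjusted p = 0.0217). An ORR1B1-int fragment 8 bases from the end of Uhrf1, a factor of DNA methylation maintenance, had 71.3, 72.9 and 56.1 against 17.3, 33.2 and 9.08 (-1.87, SE 0.30, limma adjusted p = 0.0421). The other 2, ORR1B1-int in the lipid droplet gene Plin3 (-2.22, SE 0.21) and YREP_Mm in Tspyl1 (-1.89, SE 0.20), lay 1646 and 488 bases from the annotated end.

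The highest of the rising copies was a B3 in the 5' UTR of Nfkb1, which encodes an NF-kappaB subunit (chr3:135669208-135669393, mm10), with 166, 184 and 236 in the first set and 551, 327 and 498 in the repeat set (1.21, SE 0.16, limma adjusted p = 0.0257). ID_B1 in the ribosomal protein pseudogene Rpl9-ps4 had 163, 170 and 210 against 410, 295 and 520 (1.14, SE 0.13, limma adjusted p = 0.0187), and reads there may belong to the parent gene Rpl9. L1ME4c in the coding sequence of Ciz1 had 196, 195 and 181 against 385, 374 and 378 (0.99, SE 0.11, limma adjusted p = 0.0150). RMER1C in the coding sequence of Adgra3 rose by 1.07 (SE 0.17), and RMER1A in the 3' UTR of Eif2s3x, 1830 bases from the end, rose by 0.94 (SE 0.13). The other 3 named copies were all MMSAT4, in the coding sequence of Zfp628, Repin1 and Zfp777.

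MMSAT4 and MurSatRep1 are listed as satellite repeats, but 99.1% and 93.6% of their signal lay in exons. Many copies of both in coding exons are stretches of zinc finger genes, whose proteins bind DNA through a row of similar fingers joined by short conserved linkers, although the leading MurSatRep1 copy lies in the coding sequence of Park7, which is no such gene. The linker is visible in the letters as 14 bases, ACNGGN followed by GA, any 4 bases and CC, searched on both strands. On the sense strand it was present in 71.4% of 744 MMSAT4 copies and 84.3% of 805 MurSatRep1 copies that lie wholly in a coding exon part, and in 0 of 46 coding copies of other repeats. It was present in 6.49% of all 25280 exon copies, in 5.18% of those of 90 to 170 bases, and on the other strand in 0.198% of all. The following copies show what the 2 names cover, chosen after their values were seen. Capitals mark the linker letters, and each is printed 5' to 3' on the sense strand of its gene from GENCODE M21 transcripts (GRCm38, the same assembly as mm10).
MMSAT4 in Zfp628, chr7:4919280-4919384, plus strand, coding exon: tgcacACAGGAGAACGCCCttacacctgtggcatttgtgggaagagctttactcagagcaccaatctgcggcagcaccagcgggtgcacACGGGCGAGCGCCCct
MMSAT4 in Zfp771, chr7:127254083-127254202, plus strand, coding exon: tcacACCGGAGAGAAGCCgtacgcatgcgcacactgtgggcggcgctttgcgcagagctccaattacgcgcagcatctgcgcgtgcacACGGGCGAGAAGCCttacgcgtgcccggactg
MMSAT4 in Repin1, chr6:48597025-48597178, plus strand, coding exon: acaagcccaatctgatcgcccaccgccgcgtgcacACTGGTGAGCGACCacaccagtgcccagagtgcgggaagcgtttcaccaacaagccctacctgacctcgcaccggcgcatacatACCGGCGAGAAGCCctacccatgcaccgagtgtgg
MurSatRep1 in Zfp68, chr5:138606340-138606485, minus strand, coding exon: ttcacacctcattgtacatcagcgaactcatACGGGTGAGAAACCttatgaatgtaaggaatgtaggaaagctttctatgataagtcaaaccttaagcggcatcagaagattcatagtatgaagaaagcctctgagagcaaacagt

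The printed MMSAT4 copies hold 61.0%, 65.0% and 63.0% G and C, and the MurSatRep1 copy in Zfp68 holds 39.7%. The MMSAT4 copy in Zfp628 had a signal of 126, 91.9 and 113 in tumours A, B and C of the first set and of 233, 175 and 253 in the repeat set (0.98, SE 0.13, limma adjusted p = 0.0235). The copy in Zfp771 had 378, 392 and 279 against 681, 611 and 679 (0.92, SE 0.13, limma adjusted p = 0.0274). The copy in Repin1 had 215, 216 and 331 against 550, 344 and 614 (0.97, SE 0.14, limma adjusted p = 0.0283). In all 3 copies the repeat libraries lay above the first libraries, which follows in part from choosing them among the higher calls. The MurSatRep1 copy in Zfp68 had 123, 82.9 and 125 against 69.2, 67.4 and 69.6, lower in all 3 tumours but not called (-0.65, SE 0.17, limma adjusted p = 0.199). Another MurSatRep1 copy of low GC went the other way: in Zfp958, at 36.4% GC, it had 31.4, 28.0 and 40.1 against 43.9, 33.2 and 59.0, not called either (0.42, SE 0.22, limma adjusted p = 0.525). The neighbouring MurSatRep1 copies in Zfp68 itself, at 41.9% and 42.0% GC, stood at 0.23 and 0.11 and were not called.

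Summed over all copies, MMSAT4 rose from 22969, 22865 and 24548 to 29428, 26496 and 30526, without overlap between the sets (0.29, SE 0.03, limma adjusted p = 2.65e-07, and 0.44 with TMM). MurSatRep1 had 57644, 57228 and 61525 against 55710, 53776 and 57306, a call of -0.08 (SE 0.03, limma adjusted p = 0.0342) with the deposited scaling that became 0.06 and no call with TMM. The MMSAT4 copies called higher numbered 8, in Zfp628, Repin1, Zfp777, Zfp771, Zfp865, Zfp358, Hic1 and Zfp787, and 2 were called lower, in Gm13230 and Zfp985, neither of them in coding sequence.

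The 2 satellites differ in base composition mainly among copies with enough signal. Over all copies wholly in a coding exon part, the median GC was 42.9% for 744 MMSAT4 copies and 40.4% for 805 MurSatRep1 copies. Of coding copies with a mean signal of at least 20, MMSAT4 had a median of 53.8% GC and a median difference of 0.27 (189 copies, 145 of them with a GC content), and MurSatRep1 had 43.2% GC and -0.06 (431 copies, 200 of them with a GC content). Between 45% and 50% GC the medians were 0.15 for 22 MMSAT4 copies and 0.16 for 43 MurSatRep1 copies. Between 50% and 55% GC they were 0.20 for 30 and 0.28 for 24. Above 60% GC 32 of 33 MMSAT4 copies lay above 0, with a median of 0.71. Whether MMSAT4 and MurSatRep1 differ at equal GC was not tested.

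**Figure D3:**
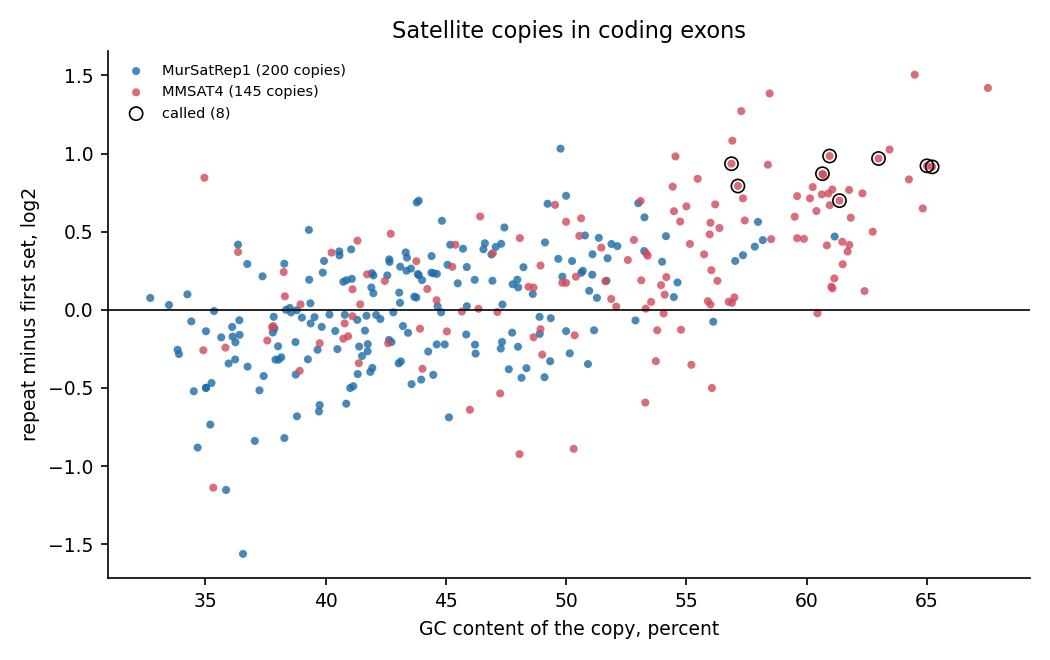
Difference between repeat and first set (vertical axis, log2) against the GC content of the copy (horizontal axis, percent) for MMSAT4 and MurSatRep1 copies in coding exons with a mean signal of at least 20, 1 point per copy, with called copies ringed. The 145 MMSAT4 copies reach further to the right than the MurSatRep1 copies, and the 8 ringed copies all lie above 55% GC.

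Differences also rose with GC content when exon copies of all repeats were pooled. Copies whose signal averaged 20 or more across the 40 libraries numbered 10091, with a median difference of -0.05 (0.01 with TMM). Exon copies with at most 35% GC had a median of -0.39 (245 copies), those between 45% and 50% had -0.06 (1793 copies), and those above 60% had 0.39 (72 copies). The lowest group lay below and the highest above the median of all copies in each tumour, with -0.47, -0.27 and -0.39 in tumours A, B and C at the low end and 0.49, 0.26 and 0.44 at the high end. With TMM the ends stood at -0.33 and 0.44. Coding MMSAT4 copies were 33 of the 72 in the top group and held all 6 of its higher calls. Without MMSAT4 and MurSatRep1 the medians were -0.39 at most 35% GC (211 copies), -0.07 between 45% and 50% (1718 copies) and 0.14 above 60% (37 copies, of which 0 were called higher and 1 lower), so the upper end was smaller. These are medians over copies that share libraries and are given without a test, and the part of base composition in the differences was not tested.

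The sequences of 2 copies in a single noncoding transcript, chosen after their values were seen, show what such a difference in base composition looks like. Mir22hg, the host transcript of a microRNA, carries an ID_B1 copy followed by 2 L1M5 copies within 1 exon part each. The ID_B1 copy holds 47.9% GC and the last L1M5 copy 25.4%. Capitals mark runs of at least 6 A or T, and both are printed 5' to 3' on the sense strand from GENCODE M21 (GRCm38).
ID_B1 in Mir22hg, chr11:75465717-75465929, plus strand, noncoding exon: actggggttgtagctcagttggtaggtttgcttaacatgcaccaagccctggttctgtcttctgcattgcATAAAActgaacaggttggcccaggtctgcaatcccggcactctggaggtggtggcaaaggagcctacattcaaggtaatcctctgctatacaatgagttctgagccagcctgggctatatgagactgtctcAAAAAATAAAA
L1M5 in Mir22hg, chr11:75466420-75466647, plus strand, noncoding exon: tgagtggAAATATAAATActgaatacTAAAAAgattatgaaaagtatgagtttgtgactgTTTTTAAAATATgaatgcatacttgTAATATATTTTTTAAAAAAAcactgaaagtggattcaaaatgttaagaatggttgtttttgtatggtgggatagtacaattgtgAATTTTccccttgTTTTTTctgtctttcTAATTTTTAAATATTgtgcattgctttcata

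The ID_B1 copy of Mir22hg had 256, 244 and 500 in the first set and 258, 227 and 552 in the repeat set (0.01, SE 0.11, limma adjusted p = 0.977). The L1M5 copy between them, at 32.8% GC, had 222, 178 and 417 against 152, 151 and 306 (-0.41, SE 0.12, limma adjusted p = 0.245). The last L1M5 copy had 89.4, 61.6 and 242 against 38.6, 23.2 and 66.6 (-1.47, SE 0.19, limma adjusted p = 0.0233). It fell in each tumour, although the sets overlapped because tumour C was high in both. The 3 copies also follow each other towards the 3' end, so base composition and position cannot be told apart here. A fall at high GC was that of B1_Mus1 in the noncoding nuclear RNA Malat1 (chr19:5801969-5802116, mm10), which at 55.4% GC fell from 491, 901 and 411 to 232, 227 and 153 (-1.50, SE 0.16, limma adjusted p = 0.0150), in a stretch where 2 annotated genes overlap.

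The second pattern was the distance from the end of the transcript. Copies in 3' UTRs that ran across the annotated 3' end had a median difference of -0.42 (349 copies), those within 100 bases of it -0.40 (330), and those more than 200 and up to 400 bases away -0.17 (535). Beyond 400 and up to 800 bases the median was -0.06 (879), and beyond 1600 and up to 3200 bases it was 0.01 (1044). Tumour A had the lowest values near the end and tumour B the highest, with -0.53 and -0.33 for copies across the end. With TMM the medians were -0.35 across the end and 0.07 in that last group. Coding copies had a median of 0.14 (990 copies) and 5' UTR copies 0.15 (235), whereas introns had -0.02 (2462) and intergenic copies -0.07 (805). With TMM introns stood at 0.04 and intergenic copies at -0.02.

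Each pattern was also present within a narrow range of the other. Among 3' UTR copies more than 1600 bases from the end, the median went from -0.20 at most 40% GC (162 copies) to 0.18 above 55% (128 copies). Among 3' UTR copies with 45% to 50% GC, it went from -0.39 within 100 bases of the end (109 copies) to 0.02 beyond 1600 bases (536 copies). Copy length made less difference, with medians between -0.03 for 100 to 200 bases and -0.11 for copies over 1000 bases.

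**Figure D4:**
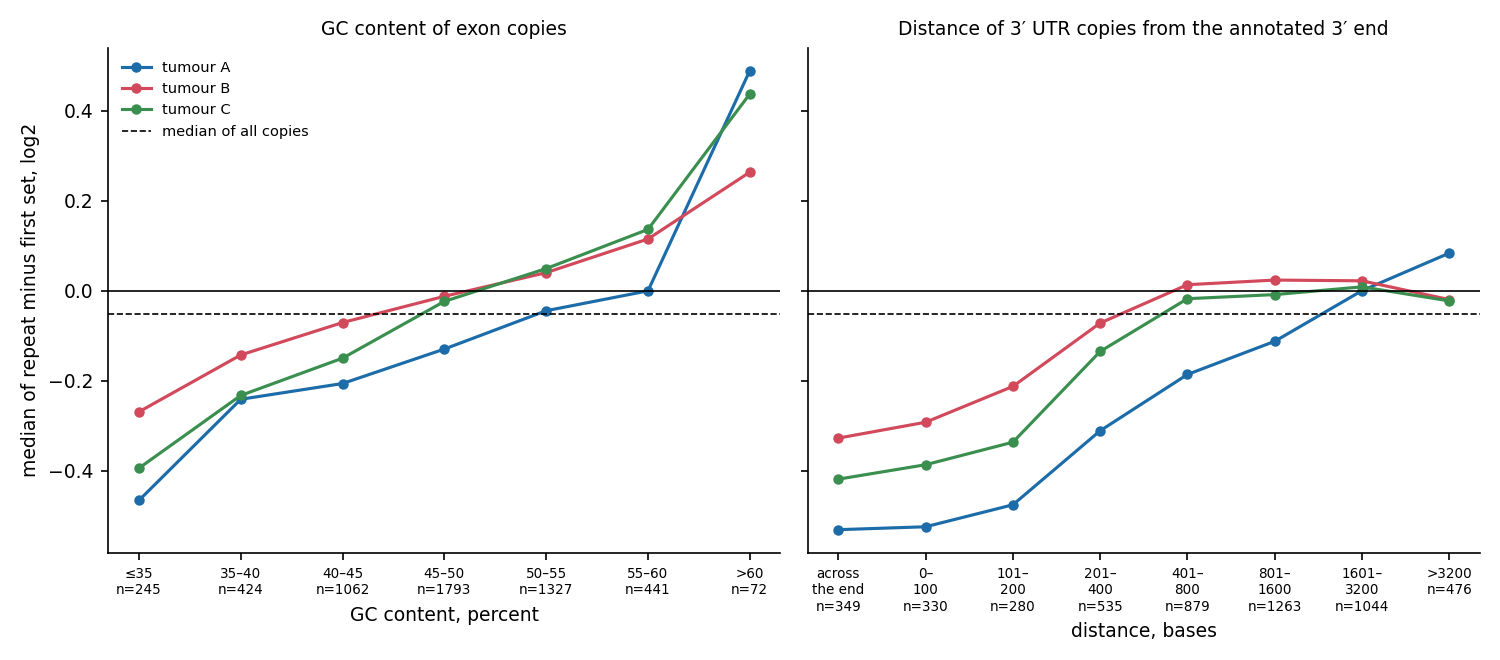
Median difference between repeat and first set (vertical axis, log2) by GC content of exon copies (left, percent) and by distance of 3' UTR copies from the annotated 3' end (right, bases), 1 line per tumour, with the number of copies under each bin. Medians over the 3 tumours rise from -0.39 at most 35% GC to 0.39 above 60% GC, where 33 of 72 are coding MMSAT4 copies, and from -0.42 across the end to values near 0 beyond 400 bases, in tumour A only beyond 1600 bases.

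B2 and B3 copies were low at every distance described. Their 613 copies in 3' UTRs had a median of -0.17, against -0.09 for 4543 copies of other repeats there. Across or within 200 bases of an end both were low, at -0.41 and -0.38, but beyond 1600 bases B2 and B3 copies still had -0.11 and the others 0.03 (-0.05 and 0.09 with TMM). Of 4769 tested B2 and B3 copies 12 were called lower (0.252%) and 1 higher (0.021%), shares no larger than the 0.373% and 0.0873% over all copies.

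The shares of a library's signal moved in the same direction as the medians. Coding exons held 9.06% to 9.53% of the signal in the first set and 10.4% to 11.1% in the repeat set. Copies across or within 200 bases of a 3' end held 8.24% to 10.7% and 7.19% to 8.24%. Exon copies with at most 40% GC held 5.50% to 6.40% and 5.21% to 5.44%, and those above 55% GC held 4.69% to 5.28% and 5.56% to 5.98%. With 3 pairs an exact test of a single share cannot reach 0.05, so no p is given.

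When the exon copies were summed per host gene, 24 of 5458 genes were lower, 0.440%, and 9 were higher, 0.165%. All 33 held with TMM, but the totals became 67 higher and 48 lower, so the majority turned. Their adjusted p lay just under the threshold (limma adjusted p from 0.0481 to 0.0498 among the 18 genes named here), and each left out tumour ended all of them.

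The rising genes of the named set were Rpl9-ps4 (1.14), Ciz1 (0.99), Akirin2 (0.85), Zfp358 (0.79), Zfp628 (0.78), Zfp787 (0.70) and Midn (0.56). In 5 of the 7 the leading copy lies in coding sequence. Zfp787 had 220, 219 and 224 against 391, 348 and 340. Akirin2 had 1376, 1309 and 2110 against 2716, 2149 and 3840, so that its tumour C stayed the highest in both sets. The falling genes all had their leading copy in a 3' UTR. Clec2d, a lectin-like ligand of natural killer cell receptors, had 2262, 1391 and 1855 against 862, 700 and 728 (-1.24, SE 0.09, limma adjusted p = 0.0481). Cd44, the hyaluronan receptor, had 390, 273 and 440 against 160, 165 and 200 (-1.05, SE 0.13, limma adjusted p = 0.0498), all of it from a copy that spans the annotated end. Arl1, Mrps26, Snapc5, Sema4b, Mrpl21 and Smim10l1 fell by 1.12, 1.12, 1.04, 1.02, 0.96 and 0.95.

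Of the pathway lists, the interferon response had 2 of 16 tested genes lower and none higher (2 lower and 1 higher with TMM). Isg15, a ubiquitin-like protein induced by interferon, had 243, 130 and 115 in the first set and 78.5, 40.9 and 52.9 in the repeat set (-1.45, SE 0.17, limma adjusted p = 0.0481), measured through a copy 40 bases from the annotated end. Ifit1, an interferon-induced RNA-binding protein, had 4058, 2062 and 1635 against 2520, 1414 and 1026 (-0.63, SE 0.06, limma adjusted p = 0.0481), through a copy that spans the end. Oasl2, an interferon-induced gene read through a copy 613 bases from the end, had 4049, 2457 and 2191 against 4743, 3097 and 2985. It was the gene called higher with TMM (limma adjusted p = 0.0833 with the deposited scaling). Tumour A was the highest in these 3 genes in both sets. No gene was called in the lists for cell cycle (11 tested), stress and amino acid response (4), hypoxia and glycolysis (3), sterol synthesis (7), immediate early genes (1) and repeat silencing factors (7), apart from 1 lower cell cycle gene with TMM.

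Differences between tumours set the scale of these differences between sets. Over 689 subfamilies with a mean of at least 50, the median size of the set difference was 0.19, 0.21 and 0.19 in tumours A, B and C. The median size of the difference between 2 tumours was 0.18 to 0.22 in the first set and 0.16 to 0.21 in the repeat set. The offset of the deposited scaling enters the set differences: less its own median, each was 0.17, 0.16 and 0.16, against 0.18 to 0.21 between tumours of the first set and 0.16 to 0.20 between those of the repeat set, treated alike.

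The largest tumour differences were found again in the repeat set. Of 20, 20 and 28 subfamilies that differed at least 2-fold in the first set between A and B, A and C, and B and C, 18, 19 and 27 differed in the same direction in the repeat set, and 7, 10 and 16 by at least 2-fold. Across the 689 subfamilies the tumour differences of the 2 sets correlated with r of 0.61, 0.66 and 0.75, a description over subfamilies that share libraries.

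MMERVK10D3_I-int, an endogenous retrovirus of the MMERVK10 type, had 2476, 11654 and 1737 in tumours A, B and C of the first set and 1965, 10288 and 1493 in the repeat set, so that tumour B was the highest in both sets. LTR81B had 169 in tumour B and 25.2 in tumour C of the first set, and 140 and 15.1 in the repeat set. RLTR30D_RN had 984 and 214 in tumours B and C, and 1025 and 195 in the repeat set. Among the named differences, 2 were not found again. Charlie2a had 33.8 in tumour A and 102 in tumour B of the first set, and 54.6 and 50.8 in the repeat set. IAP-d-int had 80.9 in tumour A and 25.2 in tumour C, and 55.9 and 53.0 in the repeat set.

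**Figure D5:**
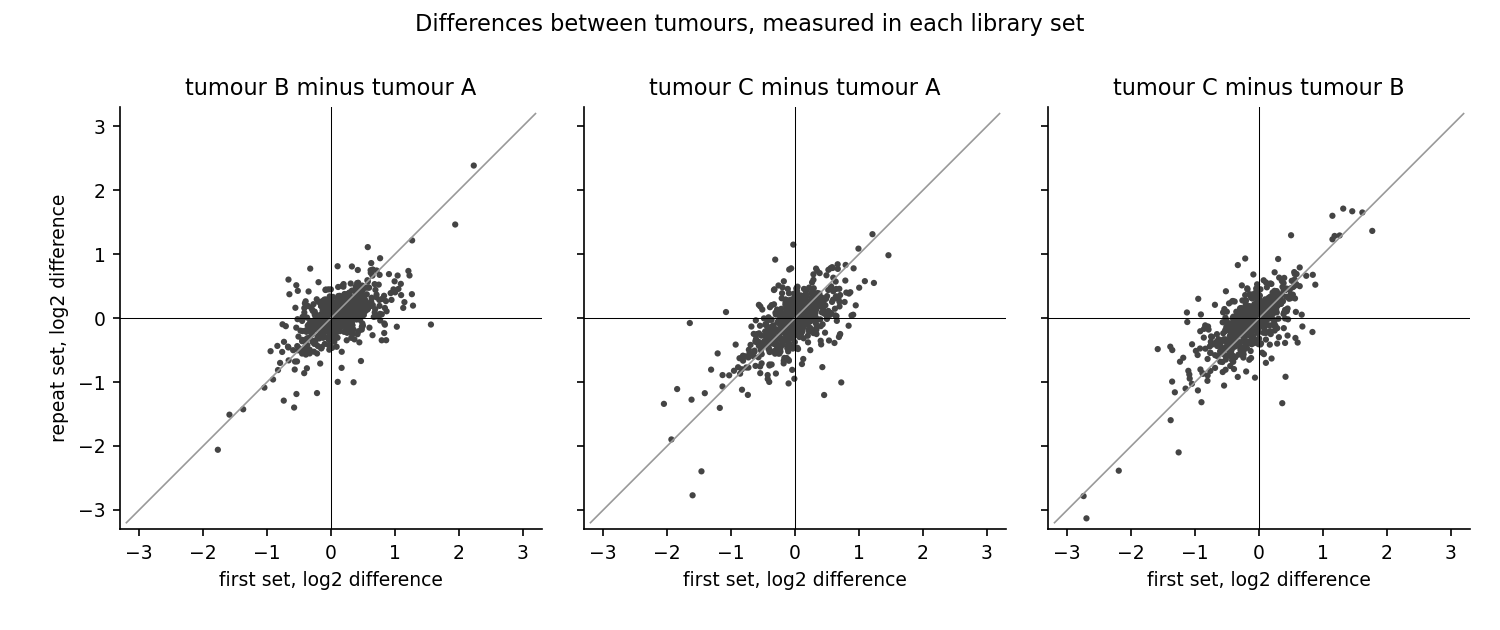
Difference between 2 tumours in the repeat set (vertical axis, log2) against the same difference in the first set (horizontal axis, log2) for 689 subfamilies, 1 panel per pair of tumours, with the line of equality. MMERVK10D3_I-int lies near the line at 2.23 and 2.39 between tumours A and B, whereas Charlie2a lies far from it at 1.56 and -0.10.

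The reads separated tumours only in part. For copies with at least 40 reads, the mean chi-square per copy between 2 libraries was 6.56, 4.17 and 4.80 for the libraries of tumours A, B and C, against 8.85 to 15.9 for libraries of different tumours in different sets. Different tumours of 1 set reached 13.7, but the closest of them, repeat A and B, had a median chi-square of 1.39 with 28.9% of copies past the 95% point, and the pair of tumour A had 1.90 with 34.7%. By these measures the libraries of tumour A were not nearer to each other than those of some different tumours. Sampling noise alone would give a mean near 1 and a median below 1. The libraries of 1 tumour differed by more than that and were counted as separate libraries. These values also depend on read depth, which differed between libraries.

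The choice of set changed what comparisons with other passages read. Balb/c-2 against Balb/c-1 had 0 of 1004 subfamilies called (0%) with the first set by limma over all 40 libraries, and 135 at an unadjusted p under 0.05. With the repeat set in its place 41 were called, 4.08%, 15 higher and 26 lower (21 and 21 with TMM). CBA against the first set had 206 calls, 20.5%, 47 higher and 159 lower (77 and 115 with TMM). CBA against the repeat set had 141 calls, 14.0%, 69 higher and 72 lower (69 and 95 with TMM). Leaving out 1 library moved these counts to between 0 and 14 (without Balb/c-1 B), 16 (without repeat C) and 65 (without repeat B), 119 (without first A) and 198, and 58 (without repeat A) and 134. These comparisons share libraries pairwise, so their calls are not independent of each other or of the set difference.

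Given side by side, X10b_DNA was 0.38 (SE 0.28) above Balb/c-1 in the first set and -1.71 (SE 0.28, limma adjusted p = 0.000315) in the repeat set. CBA stood at -1.64 (SE 0.30, limma adjusted p = 0.000141) against the first set and at 0.45 (SE 0.30, limma adjusted p = 0.329) against the repeat set. Its signal lay between 60.5 and 101 in Balb/c-1, 91.6 and 127 in the first set, 16.6 and 29.3 in the repeat set and 30.4 and 36.6 in CBA. L1MA7 gave 0.17 and -0.68 against Balb/c-1, and -0.74 and 0.11 for CBA. Charlie17b gave -0.06 and 0.65 against Balb/c-1, and 0.60 and -0.10 for CBA. MER31A gave 0.29 and -0.62 against Balb/c-1, and -0.94 and -0.03 for CBA. In these 4 subfamilies the CBA libraries lay nearer to the repeat set than to the first.

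Other subfamilies did not follow that order. MMSAT4 in CBA lay between 23092 and 24874, close to the first set's 22865 to 24548, and was lower than the repeat set by -0.28 (SE 0.08, limma adjusted p = 0.0279). B2_Mm2 in CBA lay between 32825 and 38433 and overlapped the first set. B2_Mm1t was lower in CBA against both sets, by -0.70 and -0.41 (limma adjusted p = 1.86e-05 and 0.0135), and so was MMVL30-int, by -1.30 and -1.30 (limma adjusted p = 0.0179 and 0.0293).

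The named copies separate the groups further. The Zfp664 copy lay between 46.2 and 86.3 in the N2.1, N2.2 and N2.3 groups, between 40.4 and 74.9 in Balb/c-1 and between 59.6 and 105 in the first set. In CBA it lay between 3.26 and 5.23 and in the repeat set between 3.32 and 5.32. The F0, F1 and F2 tumours and the YUMM1.7 cultures lay in between, from 10.5 to 37.7. The Plin3 copy lay between 67.6 and 145 in Balb/c-1, the first set and the N2 groups and between 9.42 and 39.9 in the repeat set, CBA, F0, F1, F2 and YUMM1.7. Other copies divided the groups differently: the Sdf2 copy lay between 46.0 and 108 in every group but the repeat set and CBA (9.32 to 25.0), and the Uhrf1 copy lay between 60.7 and 63.3 in CBA, within the first set's range. The copies were chosen by the difference between the sets, so these levels are a description. Library set, sequencing date and passage cannot be told apart across the other groups, as the labels assign no dates. CBA is the only other group whose library names carry the EKRN string of the repeat set.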

How the data were processed

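Poly(A) RNA-seq of cultured tumour cells was measured over annotated repeat copies. The deposited values are a signal that the authors made by dividing whole read counts by 1 factor per library, as the deposited values themselves show: dividing by the value of 1 read (1.11 to 1.51) gave whole numbers for 100% of values within 0.1. The build mm10 and the tools featureCounts 1.5.0-p3, StringTie 1.3.3b and HISAT2 2.0.5 are listed, without roles, per the submitters' processing notes. The treatment of reads matching several copies is not given in the sources used, so subfamilies with near-identical copies are uncertain at the level of single copies. Repeat names carry no strand, and the labels do not say which libraries were stranded.

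Of 835636 copies, 33215 with a mean of at least 5 over 40 libraries were tested, as were 1004 of 1237 subfamily sums and 5458 host gene sums over exon copies. The model was limma 3.58.1 in R 4.3.3 on log2(signal + 1), tumour plus set over the 6 libraries, two-sided, with Benjamini-Hochberg adjustment over all features and a threshold of 0.05. Comparisons with other groups were fitted over all 40 libraries with 1 mean per group. Copies were placed on GENCODE M21 basic (GRCm38) with bedtools 2.31.1. GC content was read only for copies wholly inside 1 exon part, 5364 of 6824 exon copies with a mean of at least 20. The tested copies hold 85.2% of the signal, and depth limits single copies more than sums. Intervals on read ratios cover counting error only, as reads were pooled over tumours and the spread between tumours is left out. No molecular identifiers are stated, so duplicate reads may count as separate ones.

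Pairing comes from the tumour letters in the labels: deviations from the group means correlated at 0.155, 0.251 and 0.255 for libraries of the same letter and from -0.195 to -0.0563 for other letters. Deviations cancel out within a group, so the negative values for other letters follow from the positive ones and add no evidence. Alternatives were edgeR 4.0.16 and DESeq2 1.42.0 on the recovered reads (rounded to whole numbers), TMM scaling, other pseudocounts and filters, thinned reads, no block and each tumour left out. Subfamily sums were also taken over copies outside exons and, an alternative chosen after seeing the data, without copies across or within 400 bases of a 3' end. The model was tested on simulated data. Subfamilies were named as the 10 highest and 10 lowest calls with a mean of at least 50 and 1 sign in 3 tumours, plus the 3 most abundant members of each list and fixed retroelements. Copies were named as the 8 highest and 8 lowest calls without overlap, host genes as the 10 at either end by the same rule plus called list members, and tumour differences as the 5 largest per pair. The members and lists were chosen with earlier results of these data known.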

Additional observations from a re-analysis of the deposited data

How the results depend on the processing

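The pairing by tumour decided much of the calling. Against 153 copies, 217 subfamilies and 33 host genes, limma with no replicate block called 1 copy, 6 subfamilies and 0 host genes (472 at an unadjusted p under 0.05), and over all 40 libraries without the block 77 copies and 30 subfamilies. On the recovered reads with the replicate block, edgeR called 805 copies, 139 subfamilies and 689 host genes and DESeq2 403, 107 and 269. TMM scaling gave 137 subfamilies and 115 host genes. With no filter there were 60 copies, 139 subfamilies and 229 host genes, and with a mean of at least 20 there were 709 copies and 546 host genes. A pseudocount of 0.5 gave 101 copies and 0 host genes (limma, 1082 unadjusted), and one of 5 gave 268 and 105. Thinned reads gave 56 copies and 0 host genes (limma, 1044 unadjusted), and copies outside exons gave 64 subfamilies, 1 higher and 63 lower. On reads, host genes split into 383 higher and 306 lower with edgeR and 168 and 101 with DESeq2.

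Leaving out tumours A, B and C in turn left 0, 70 and 17 copies (2902 unadjusted without A), 129 to 175 subfamilies, lowest without tumour C, and 0 host genes each time (725 to 886 unadjusted). Balb/c-2 against Balb/c-1 ranged from 0 to 14 (without Balb/c-1 B), the repeat set against Balb/c-1 from 16 (without repeat C; 23 without Balb/c-1 C and 24 without repeat A) to 65 (without repeat B), CBA against the first set from 119 (without first A; 126 without CBA A) to 198, and CBA against the repeat set from 58 (without repeat A; 60 without repeat C, 66 without CBA C, 68 without CBA A and 75 without CBA B) to 134.

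Signs turned outside exons in RLTR51A_Mm (-0.18), RLTR44-int (-0.19), MMERVK9C_I-int (-0.19), MT2B2 (-0.066), L1MdF_III (-0.28), L1MB7 (-0.33) and UCON4 (0.21). TMM, edgeR and DESeq2 turned Lx8 (0.041, 0.041, 0.059), PB1D10 (0.068, 0.068, 0.086), RSINE1 (0.044, 0.044, 0.062), MurSatRep1 (0.064, 0.064, 0.082) and B1_Mm (0.012, 0.012, 0.030), and DESeq2 alone L1_Rod (0.016), B3 (0.014) and URR1A (0.003). The cause was not tested.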
